A study of Bos taurus with 32 samples.

Results

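The testicle and the adrenal of the same bull calves were compared by RNA sequencing of whole organ samples. All calves were Holstein males, and every embryo had been carried to term by a recipient cow. The 4 IVP calves (3208, 3209, 5833 and 5841) came from embryos produced in vitro, and the 4 MOET calves (3213, 3217, 3218 and 5932) from embryos conceived in the donor after superstimulation and insemination. The calves were 98 to 104 days old, apart from MOET calf 3213, which was 144 days old. The 16 libraries compared here, 8 per organ, were those whose labels name the testicle or the adrenal, among 32 libraries from 4 organs, and the animal number pairs the organs of a calf. No calf received a drug or carried a transgene, as far as the labels say, so the contrast is one of organs, with both origins pooled.

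Both organs make steroid hormones from cholesterol. In the testicle, Leydig cells between the tubules make androgens, while Sertoli cells and germ cells fill the tubules. In the adrenal, the cortex makes glucocorticoids and mineralocorticoids, and the medulla holds neuroendocrine cells that release catecholamines. At about 3 months of age the testicle of a bull calf is still immature. The count table and the reference table used here do not pair the Ensembl identifiers with gene symbols, and 0 of 27607 identifiers could be matched. The labelled organs could therefore not be checked against their marker genes, and genes are described by their levels, their differences and, for 4 of them, by identifier. In whole organ samples, fewer cells of a type and less RNA per cell cannot be told apart.

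Before the organs were compared, each deposited column was set against the geometric mean of the other 3 columns of its organ and origin, scaled to its depth, over genes with at least 300 counts in each of those 3. In 5 of the 32 columns, 96.9 to 99.5% of these genes lay within 5% of that mean, and the median squared residual was 0.0129 to 0.10 of what counting noise alone would give. These were the columns of calf 3213 in all 4 organs and the adrenal column of calf 5833. In the other 27 columns, 9.59 to 61.9% of the genes lay within 5%, and the residual was 3.23 to 174 times counting noise. Columns that follow the mean of the others more closely than counting allows add no independent measurement for those genes. The sources used here do not say how they arose, and this was not tested. Since 3 of the 5 columns belong to the organs compared, the counts of genes that differed are given for the 8 calves as deposited and for the 6 calves (3 IVP, 3 MOET) with counts of their own in both organs. Other values refer to the 6 calves unless stated. Their totals were 20258880 to 22149064 counts in the testicle and 17885598 to 19483453 in the adrenal.

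**Figure D1:**
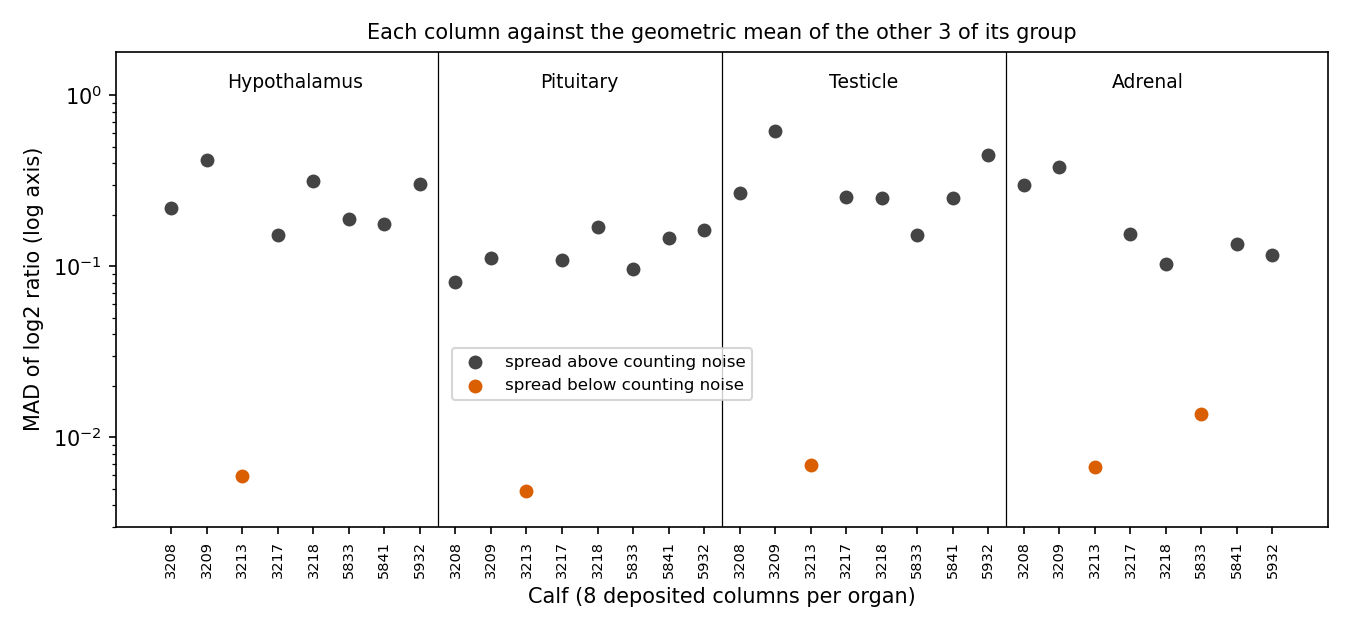
Median absolute deviation (MAD) of the log2 ratio between each deposited column and the geometric mean of the other 3 columns of its organ and origin, on a log axis, with 1 point per column. The 5 orange columns, calf 3213 in each organ and the adrenal of calf 5833, lie at 0.00488 to 0.0137, and the other 27 lie at 0.0810 to 0.620.

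Most genes differed between the organs, in both directions. Over 8 calves, 11971 of 15993 genes tested differed (74.9%), 6166 higher in the testicle (38.6%) and 5805 higher in the adrenal (36.3%), by edgeR's quasi-likelihood test with the calf as a block and a Benjamini-Hochberg adjusted p of at most 0.05. Over the 6 calves, 10661 of 16080 differed (66.3%), 5408 toward the testicle (33.6%) and 5253 toward the adrenal (32.7%). The median size of the log2 difference was 0.66 over all genes tested in the 6 calves and 1.03 over those that differed, with a median SE of 0.17. Levels of the 6 testicles lay wholly above those of the 6 adrenals for 2964 genes (18.4%) and wholly below them for 3511 (21.8%).

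Large differences leaned toward the testicle. At least 4-fold differences were found for 2262 genes over 8 calves (14.1%), 1447 higher in the testicle (9.05%) and 815 higher in the adrenal (5.10%). Over the 6 calves there were 2269 (14.1%), with 1385 higher in the testicle (8.61%) and 884 higher in the adrenal (5.50%). Of these genes, 2170 were shared by both fits, which use the same libraries in part, and all 2170 had the same direction. They make up 95.6% of the 6-calf list and 95.9% of the 8-calf list. At 64-fold or more there were 168 genes higher in the testicle and 45 higher in the adrenal, and at 256-fold or more 45 and 16. The 168 had a median level of 5.75 CPM (counts scaled to the library total) in the testicle, and the 45 a median of 21.1 CPM in the adrenal. Many of the testicle's largest differences were thus in genes with few counts. Below, the 1385 and the 884 genes are called testicle-high and adrenal-high.

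**Figure D2:**
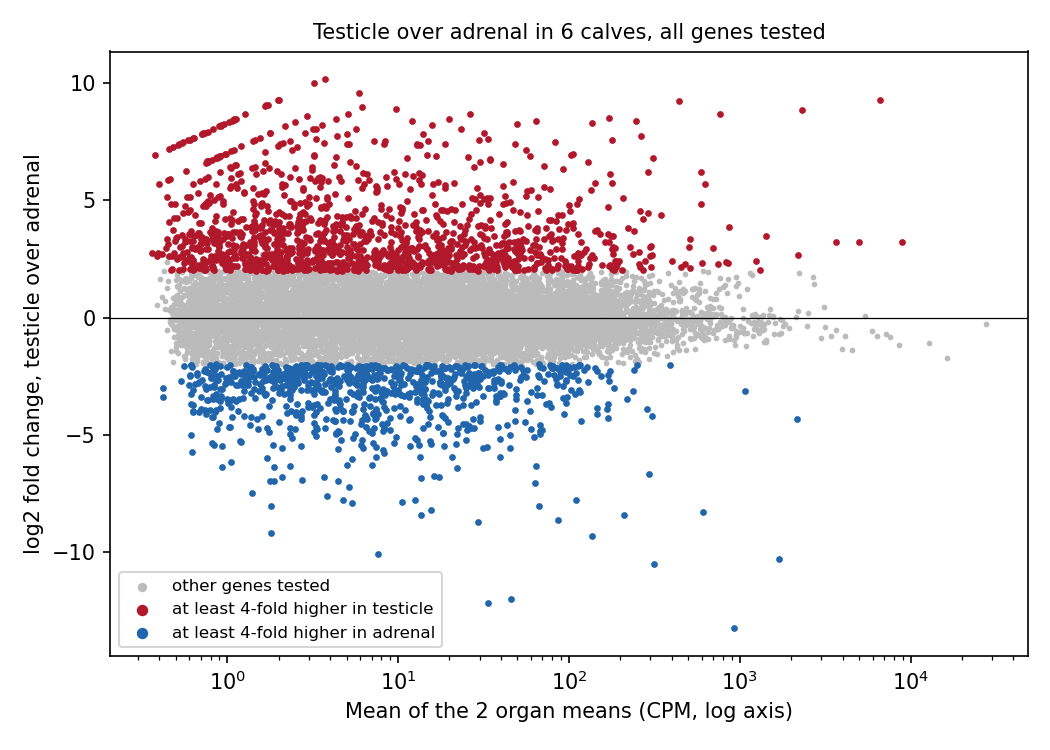
Log2 fold change of testicle over adrenal against the mean of the 2 organ means in CPM (log axis), 1 point per gene tested in 6 calves. Genes at least 4-fold higher in the testicle are red (1385) and those at least 4-fold higher in the adrenal are blue (884).

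The testicle-high genes held 13.7 ± 0.559% of all counts in the testicle (SD, n = 6) and 1.44 ± 0.0786% in the adrenal. The adrenal-high genes held 4.64 ± 0.697% of the counts in the adrenal and 0.481 ± 0.0408% in the testicle. Since the lists were chosen on these libraries, the shares describe them and test nothing. They show that the organ-high genes took up more of the testicle's library than of the adrenal's. Among the 100 most counted genes of each organ, 67 were the same, and the gene with most counts was the same in both, at 2.49% of counts in the testicle and 3.02% in the adrenal. Of the 100, 19 were testicle-high in the testicle, against 8.61% of all genes tested. In the adrenal 5 of the 100 were adrenal-high, close to the 5.50% of all genes tested.

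The 10 testicle-high genes with the most counts averaged from 1626 to 16059 CPM, without regard to gene length. Together they made up 6.18% of testicle counts and 0.533% of adrenal counts. The first of them averaged 16059 ± 3912 CPM over the testicles and 1700 ± 335.3 CPM over the adrenals (SD, n = 6). It was thus among the abundant transcripts of both organs, with a log2 fold change of 3.22 (SE 0.26, edgeR adjusted p = 1.72e-05). Only 2 of the 10 differed by more than 64-fold. The corresponding 10 adrenal-high genes averaged from 530.7 to 4131 CPM and made up 1.55% of adrenal counts and 0.0643% of testicle counts. More than 64-fold differences were found for 5 of these 10. The fourth had 897.3 to 4646 CPM in the adrenals and 0 to 0.361 CPM in the testicles. It passed the low-count filter in the 6 calves but not in the 8. The eighth ranged from 0 to 1232 CPM over the 6 adrenals and overlapped with the testicles, where it ran from 0.0494 to 52.6 CPM.

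The genes named here are the 2 per direction with the largest fold change in the 8 calves, among genes that differed and had at least 20 CPM in the higher organ. They need not be the largest over the 6 calves. The fourth most counted adrenal-high gene, not tested over the 8, had a log2 fold change of -13.26 (SE 0.55) over the 6, beyond both adrenal genes named here. ENSBTAG00000025775, also the second most counted testicle-high gene, had 12215, 18806 and 11685 CPM in the testicles of IVP calves 3208, 3209 and 5841. It had 8727, 11237 and 17069 CPM in those of MOET calves 3217, 3218 and 5932. In the adrenals it had 7.92, 29.4 and 121 CPM in the IVP calves and 16.8, 16.3 and 12.1 CPM in the MOET calves, in the same order. Every testicle lay far above every adrenal, and the adrenal of calf 5841 was the highest of the adrenals. The log2 fold change was 9.30 (SE 0.69, edgeR adjusted p = 1.19e-05) over the 6 calves and 9.21 (SE 0.61, edgeR adjusted p = 5.42e-07) over the 8.

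ENSBTAG00000032687 had 777.0, 1642 and 601.0 CPM in the IVP testicles and 648.7, 630.0 and 993.0 CPM in the MOET testicles. Its adrenal levels were 0.0518, 2.01 and 7.90 CPM in the IVP calves and 1.02, 0.984 and 0.638 CPM in the MOET calves. Calf 5841 again had the highest adrenal and calf 3209 the highest testicle. The log2 fold change was 9.23 (SE 0.78, edgeR adjusted p = 2.27e-05) over the 6 calves and 9.16 (SE 0.70, edgeR adjusted p = 1.51e-06) over the 8. Both genes were also near 0 in the other organs, with medians of 1.07 and 0.0496 CPM in the hypothalamus and 0.218 and 0 CPM in the pituitary. The second gene had 0 counts in 5 of the 6 pituitaries, which allows up to 0.145 CPM. The hypothalamus of calf 3209 stood out, with 25.8 CPM of the first gene and 4.47 CPM of the second.

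ENSBTAG00000054126 had 748.8, 229.8 and 694.2 CPM in the IVP adrenals and 766.7, 731.8 and 600.0 CPM in the MOET adrenals. Its testicle levels ran from 0.196 to 0.790 CPM, with a median of 0.346 CPM. The adrenal of calf 3209 was the lowest and still lay far above every testicle. The log2 fold change was -10.51 (SE 0.29, edgeR adjusted p = 1.80e-07) over the 6 calves and -10.05 (SE 0.81, edgeR adjusted p = 2.23e-06) over the 8. ENSBTAG00000011731 had 1621, 8533 and 3282 CPM in the IVP adrenals and 1745, 2145 and 3046 CPM in the MOET adrenals, against 1.35 to 3.97 CPM in the testicles. Here calf 3209 had the highest adrenal. The log2 fold change was -10.29 (SE 0.55, edgeR adjusted p = 2.39e-06) over the 6 calves and -9.37 (SE 1.36, edgeR adjusted p = 1.33e-04) over the 8. The deposited adrenal column of calf 5833 held 1 count of ENSBTAG00000054126 and 0 counts of ENSBTAG00000011731, which allows up to 0.156 CPM for counting error alone.

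**Figure D3:**
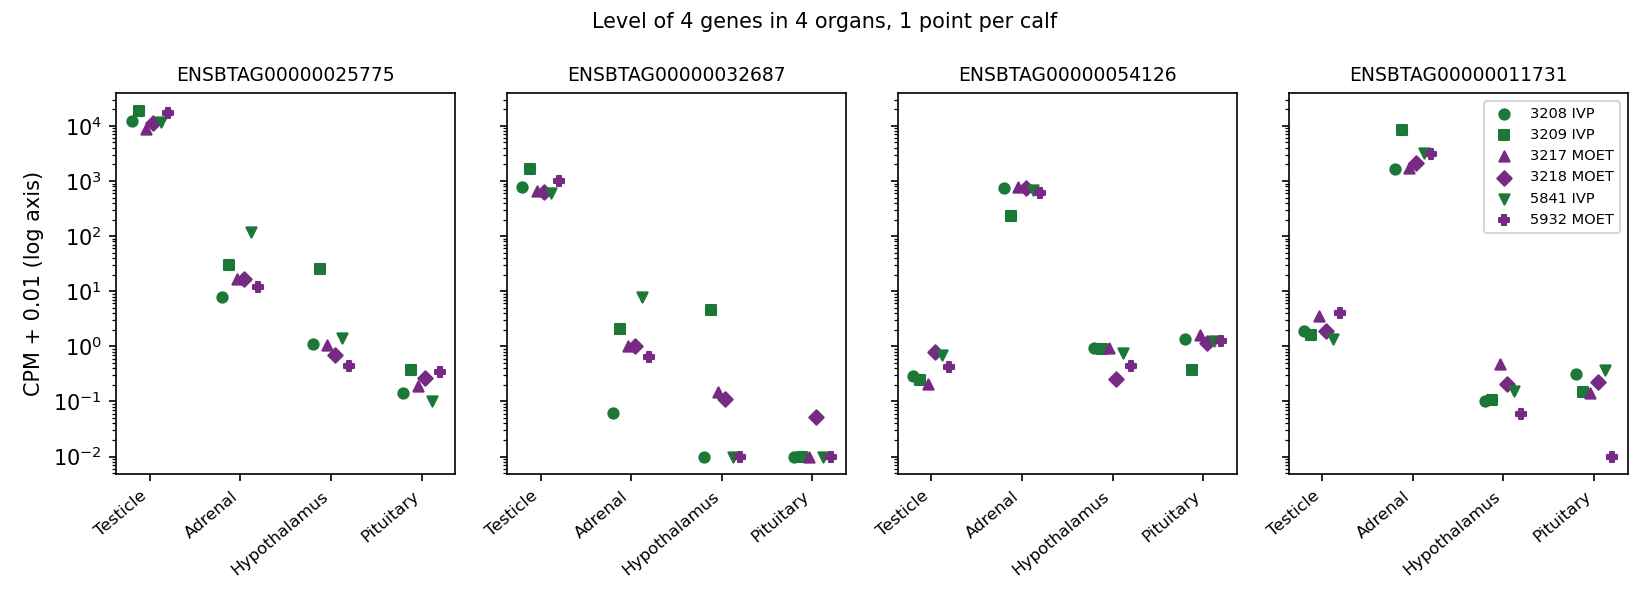
Levels of the 4 named genes in CPM plus 0.01 (log axis) in 4 organs, 1 point per calf for the 6 calves, IVP in green and MOET in purple. The first pair of panels is high in the testicle and the second pair in the adrenal, with no overlap between these organs.

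That pattern in the adrenal of calf 5833 was not limited to the named genes. Of 882 adrenal-high genes read in all 6 adrenals, 85 were under 10% of the lowest of the 6 in that column, 68 of them at 0 counts. A further 10 genes lay between 50 and 100% of the lowest adrenal, and 0 lay between 10 and 50%. The adrenal column of calf 3213 had 10 of the 882 genes under 10% of the lowest adrenal. In the testicle columns of both calves, 0 of the 1385 testicle-high genes were under 10% of the lowest of the 6 testicles. The adrenal column of calf 5833 thus follows the other IVP adrenals for most genes and lacks some of the adrenal-high ones. Adrenal genes outside that list were not counted in this way. Whether the lack is particular to adrenal-high genes was therefore not tested. Of the 884 genes, 51 were not tested over 8 calves, and 46 of these 51 were among those near 0 in the adrenal column of calf 5833.

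For the genes at least 64-fold apart and at 20 CPM or more, the other organ was read calf by calf. The 51 such testicle genes summed to 22567 to 35625 CPM in the testicles. In the adrenals their sum was 65.1 to 105 CPM in 5 calves and 333.5 CPM in calf 5841. In that adrenal the median gene stood at 1.32% of its level in the calf's own testicle, against 0.308 to 0.596% in the other 5 calves, and 37 of the 51 genes had their highest adrenal level there. Calf 5841 also had the highest sum of the 51 genes in the hypothalamus, 495.6 CPM against 243.5 to 428.8 CPM in the other 5 calves. In the pituitary its sum was 349.9 CPM against 229.9 to 296.9 CPM. In both organs calf 5841 stood less far above the next calf than in the adrenal. Which of the 51 genes made up these higher sums was not tested. The 23 adrenal genes summed to 6693 to 18281 CPM in the adrenals and to 11.8 to 34.2 CPM in the testicles, with no calf set apart to the same degree. Whether testicle RNA reached the adrenal library of calf 5841 was not tested.

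Each calf was then left out in turn, the genes at least 4-fold apart were chosen in the other 5, and their difference was read in the calf that had no part in the choice. Of all the genes so chosen, 94.4 to 100% of the testicle-high and 98.7 to 99.9% of the adrenal-high ones had the same direction in that calf. The difference was again at least 4-fold for 60.6 to 90.3% and 67.7 to 84.7% of them. Median log2 CPM differences in the calf left out were 2.52 to 3.24 toward the testicle and 2.50 to 3.03 toward the adrenal. MOET calf 5932 had the smallest testicle median, and MOET calves 3217 and 5932 the smallest adrenal ones (both 2.50). Across all genes, the within-calf differences of any 2 calves had a Pearson r of 0.690 to 0.945 over 15 pairs of calves, as a description in which all genes of a library share its depth.

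**Figure D4:**
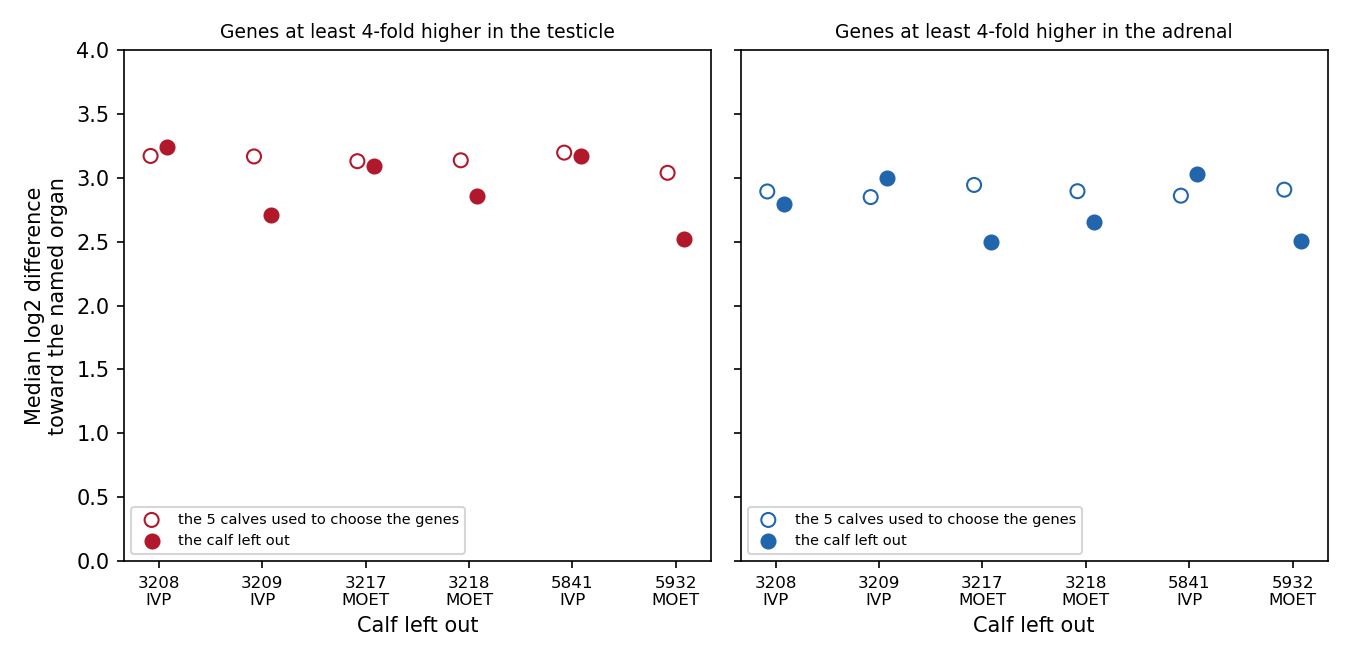
Median log2 CPM difference toward the named organ, for genes chosen as at least 4-fold apart in 5 calves (open points) and read in the calf left out (filled points). Filled points lie between 2.52 and 3.24 for testicle genes and between 2.50 and 3.03 for adrenal genes.

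The origins were also fitted apart, with 3 calves each and no animal in common. At least 4-fold differences were found for 2730 genes in IVP and 2322 in MOET calves, and 1775 were shared, 65.0% of the first list and 76.4% of the second. All 1775 had the same direction. With the 4 deposited columns per origin and organ, the numbers were 2704 and 2336. Only 5 genes of the IVP list and 3 of the MOET list pointed the other way in the other origin. Log2 differences of the origins had a Pearson r of 0.914 and a Spearman rho of 0.891 across 15951 genes, which are not independent replicates.

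Whether the organ difference itself depended on embryo origin was tested as the organ by origin term. Over the 8 calves as deposited, 1302 of 15993 genes passed (8.14%), with the testicle over adrenal difference more positive in IVP for 733 and more negative for 569. Over the 6 calves, 0 of 16080 genes passed (0%) in edgeR, with a smallest adjusted p of 0.0531, while 2353 had an unadjusted p under 0.05. In the same 6 calves the DESeq2 Wald test called 215 genes and limma voom with quality weights 223. The median SE of the 1302 genes, which were chosen on the 8 calves, was 0.20 over 8 calves and 0.27 over 6. None of the 4 named genes passed the origin test in either set.

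The number of genes read at 1 CPM or more was 14663 ± 394 in the testicle and 14318 ± 270 in the adrenal (SD, n = 6). The testicle had more in 5 of 6 calves, by 345 genes on average (two-sided exact sign-flip permutation test, p = 0.0938, adjusted over 2 measures 0.188). The 100 most counted genes held 26.4 ± 2.89% and 28.3 ± 2.34% of counts, a difference of -1.90 percentage points (exact sign-flip permutation test, p = 0.25, adjusted 0.25). With 6 pairs the smallest p this test can give is 0.0313. Neither difference passed over the 6 calves. Over the 8 calves as deposited, the difference in genes read was 456.5, with the testicle higher in 7 of 8 calves (exact sign-flip permutation test, p = 0.0234), and that in the share of counts was -2.08 points (exact sign-flip permutation test, p = 0.102). With the 10 most counted genes in place of 100, the difference over the 6 calves was -2.95 points, lower in the testicle in 6 of 6 (exact sign-flip permutation test, p = 0.0313).

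The hypothalamus and pituitary of the same 6 calves show how far the organ-high genes were shared beyond the contrast. At a mean of 1 CPM or more, 64.6% of testicle-high genes were read in the hypothalamus and 60.2% in the pituitary. Among adrenal-high genes the shares were 77.4% and 73.2%, and among all genes tested 88.1% and 87.9%. Read in neither were 387 testicle-high genes (27.9%), 153 adrenal-high genes (17.3%) and 8.32% of all genes tested. The mean level in the testicle lay above both the hypothalamus and the pituitary for 75.1% of testicle-high genes and 45.9% of all genes tested. The mean level in the adrenal lay above both for 53.7% of adrenal-high genes and 43.0% of all genes tested. Each list was chosen for a high level in that organ in these same libraries. An excess over all genes tested is therefore partly built in, and these shares only describe the lists. Calf by calf, the share of adrenal-high genes read in the hypothalamus exceeded that of testicle-high genes by 14.3 ± 2.38 percentage points (SD, n = 6), and in the pituitary by 13.4 ± 2.02 points, in 6 of 6 calves each. The same lists, chosen on these calves, were read in every calf. The SD thus covers the calves and not the choice of genes. Adrenal-high genes had more counts than testicle-high genes in their own organ, with medians of 11.9 and 8.97 CPM, and the part of this in the shares was not tested.

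**Figure D5:**
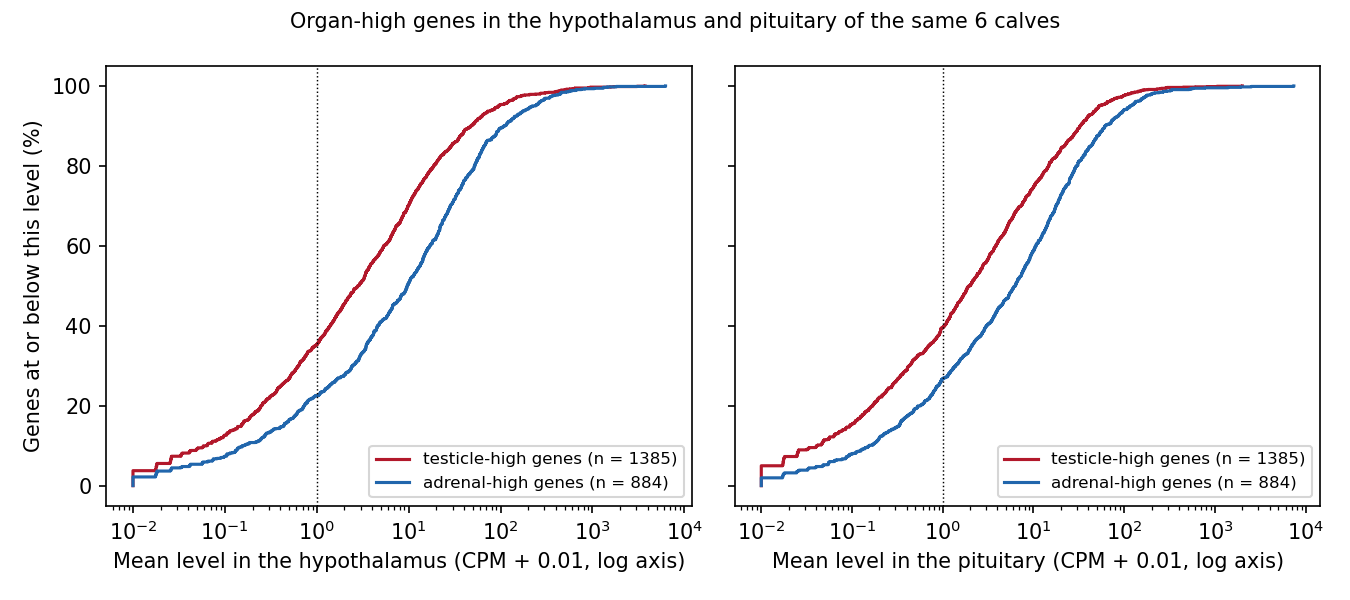
Cumulative share of the 1385 testicle-high (red) and 884 adrenal-high (blue) genes at or below a given mean level in the hypothalamus (left) and the pituitary (right) of the 6 calves, in CPM plus 0.01 on a log axis. At the dotted line (1 CPM), the testicle-high curve is the higher one in both organs, since more of these genes lay below that level.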

How the data were processed

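Poly(A)-selected, not strand-specific libraries were read in pairs of 100 bases on a DNBSEQ instrument, per the labels' protocols. The authors deposited raw counts for each gene. STAR 2.7, HTSeq and the bosTau9 build are named in the submitters' processing notes. The sources used here do not give the annotation release or the counting options. Without strand, a gene and an overlapping antisense gene cannot be separated, and counts of near-identical genes are uncertain.

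Counts of the 16 testicle and adrenal libraries were filtered with filterByExpr (minimum count 10, total 15), scaled with TMM and tested with edgeR 4.0.16 (glmQLFit, robust; glmQLFTest), with the calf as a block, in R 4.3.3 with limma 3.58.1 and DESeq2 1.42.0. The pairing comes from the labels, which give both organs of a calf the same animal number. Deviations of a calf's 2 organs from their group means had r of -0.203 to 0.552 in the 6 calves. No 2 libraries of a group among these were identical (0 of 12 pairs), and chi-square per degree of freedom was 7.43 to 129. An SE is the size of the log2 fold change over the root of F. A count of 0 was taken to allow up to 3 counts. Figures were drawn with matplotlib 3.10.9.

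The genes, lists and comparison were chosen with earlier results of these data known. At least 4-fold means an absolute log2 fold change of 2 or more after the test. Named genes were limited to 2 per direction because no identifier could be matched to a symbol in the RefSeq table (37063 genes), and 23 planned gene and marker lists were not tested for the same reason. The check of the columns, its limit of 300 counts, the analysis of 6 calves, the reading of calves left out and of the other 2 organs, and the 64-fold set were chosen after the data were seen, and after counts with single calves left out were known. Leaving out calves 3213 and 5833 rests on the check of the columns.

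On simulated counts with known changes, the organ test called 83 of 100 genes with a 2-fold change, and 98 of 100 with a 4-fold change, in the 8-calf design, with 9 false calls among 15849 genes. In the 6-calf design it recovered 66 and 96 of 100, with 9 false calls among 15936 genes. The origin term recovered 21 of 100 and 73 of 100 over 8 calves, with 3 false calls among 15855 genes, and 3 of 100 and 59 of 100 over 6, with 12 false calls among 15925 genes. Genes were drawn independently, and the 8-calf spread came from a fit that included the columns that follow the others. All genes without a set change had the same mean in both organs, unlike the data, and no calf effect was added. Changes were set only in genes above a minimum expected count. The numbers therefore do not cover genes with few counts. Alternatives were other scalings, filters, tools and sets of calves.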

Additional observations from a re-analysis of the deposited data

Results flagged for a closer look

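Within each organ, 12 sets of 8 library values (levels of the 4 named genes and 2 library measures) were searched for a single value far from the rest, a search in which chance finds about 1 in 20. It found 3. The testicle of calf 3209 had 13968 genes at 1 CPM or more, the lowest of the 8 testicles. The adrenal column of calf 5833 had 0.0522 CPM of ENSBTAG00000054126 and 0 CPM of ENSBTAG00000011731, far below the other 7 adrenals. That column follows the other IVP adrenals in most genes, as described above.

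The difference between testicle and adrenal differed between IVP and MOET calves for 1302 genes over the 8 calves as deposited, by the organ by origin term in edgeR. The number was 0 in edgeR without calves 3213 and 5833, where 2353 genes had an unadjusted p under 0.05 and DESeq2 called 215.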

How the results depend on the processing

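The number of genes that differed between organs stayed within a factor of 1.5 of the main count in every setting run. The main count was 11971 over 8 calves and 10661 over 6. Settings ranged from 9894 to 13546 over 8 calves and from 7157 to 12501 over 6. Without the replicate block the number was 11876 and 10349. The 4 named genes kept direction and call in all 17 settings over 8 calves and all 14 over 6. They were chosen for large fold changes in these same libraries, so this is no independent check. The number at least 4-fold apart moved only with no low-count filter (3770 over 8 calves, 3449 over 6). A glmTreat test against a 2-fold change, which sets no 4-fold limit and so counts something else, called 3835 and 3492 genes. The organ by origin count was the least stable. Against 1302, it was 3156 with the DESeq2 Wald test, 854 with no filter, 8638 with limma voom and quality weights, 65 without the replicate block, and 0 to 2000 with 1 calf left out. Other scalings moved it less, to 1410 with DESeq2 size factors and 1330 with TMM without the 100 most counted genes. The count was 905 without calf 3208, 1293 without 3209, 0 without 3213 and 2000 without 3217. It was 22 without 3218, 3 without 5833, 2 without 5841 and 764 without 5932. Chosen after the data were seen, leaving out calves 3213 and 5833 gave 0, and leaving out 3209 and 5932, which keeps the columns that follow the others, gave 3365. Over the 6 calves the count was 215 with DESeq2, 1 with no filter and 223 with voom, and 0 with each calf left out. The cause of these shifts was not tested. The difference in genes at 1 CPM or more was 456.5 over all 8 calves (exact permutation p = 0.0234). That p takes all pairs as independent, although calves 3213 and 5833 have columns that follow the others. The difference in the share of the 10 most counted genes was -2.95 points (exact permutation p = 0.0313, the smallest that 6 pairs can give). The 85 adrenal-high genes near 0 in the adrenal of calf 5833 were 81 under a limit of 5% and 85 under 25%, and 67 among genes at least 8-fold apart. Depth limits genes near 0 in an organ, and 3 calves per origin limit the origin term.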
